A study of Mus musculus with 8 samples.

Results

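The Fc receptors for immunoglobulin G (IgG) are described here in mouse liver during colitis, as the 6 genes Fcgr1, Fcgr3, Fcgr4, Fcer1g, Fcgr2b and Fcgrt out of 22180 measured genes. The genes were taken by name, and for each the row of the value table that names that gene alone was used; every one of the 6 has a single such row. RNA of whole liver was profiled on 8 Affymetrix Mouse Gene 2.0 ST arrays, 4 of wild-type mice and 4 of mice labelled IL-10 knockout, and no untreated mice were compared. Both groups are labelled C57BL/6, female and 6 weeks of age, and all mice received 3% dextran sulfate sodium (DSS), which damages the colon lining, in drinking water over 7 days. Values are log2 levels from robust multi-array averaging (RMA), each error after a mean is the SD over the 4 arrays of a group (n = 4), and differences are knockout-labelled minus wild-type.

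IgG receptors let cells respond to antibody bound to its target. The activating receptors Fcgr1, Fcgr3 and Fcgr4 bind IgG outside the cell and need the common gamma chain, encoded by Fcer1g, which carries the tyrosine motif (ITAM) that recruits the kinase Syk. Fcgr2b binds IgG too, but carries an inhibitory tyrosine motif (ITIM) that recruits the phosphatase SHIP-1, and in liver it is abundant on sinusoidal endothelium, which clears immune complexes. Fcgrt encodes the heavy chain of the neonatal receptor FcRn, which returns IgG and albumin from endosomes to the blood and does not signal through either motif.

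The labels and the arrays differ in one respect that concerns every value below. All mice are labelled female, yet replicates 1 and 2 of each group had Y-linked signal (Kdm5d 8.03 to 8.17, Uty 8.15 to 8.71) and Xist at 5.62 to 6.32, while replicates 3 and 4 of both groups had Xist at 11.7 to 11.8 and Kdm5d at 4.42 to 4.56. Each of these signal sets holds 2 arrays of each genotype, so results are given with all 8 arrays and, where it matters, within each set. Arrays are numbered below by their replicate number. The Il10 row was higher, not lower, in the knockout-labelled group: its level was 4.95, 5.08, 4.90 and 4.95 in wild-type arrays 1 to 4 and 5.79, 5.69, 6.00 and 6.41 in knockout-labelled arrays 1 to 4 (limma adjusted p = 0.00851). Which stretch of Il10 is altered, and whether this row's probes cover it, is not given in the labels, so the row checks nothing, and directions rest on the labels. Albumin (Alb), made by hepatocytes, read 13.6 in the wild-type group, near the highest value of the whole table, 13.8.

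The upstream sequences of 4 receptors are shown because Fcgr4, Fcgr3 and Fcgr1 encode IgG-binding activating receptors and Fcgr2b, from the same gene cluster as Fcgr4 and Fcgr3, the inhibitory one. Each is the 250 bases before the gene's start in RefSeq, assembly GRCm38.p6, written 5′ to 3′ on the gene's own strand; all 6 genes matched that table. Capitals mark 3 motifs searched on both strands: GAGGAA or its reverse TTCCTC, the core bound by the myeloid factor PU.1; TTCNNNGAA, the STAT element, which reads the same on both strands; and GAAANNGAA or TTCNNTTTC, part of the interferon element. Fcgr3 has 2 starts in the table, and the one farther upstream is used.
Fcgr4, chr1:171018676-171018925, plus strand: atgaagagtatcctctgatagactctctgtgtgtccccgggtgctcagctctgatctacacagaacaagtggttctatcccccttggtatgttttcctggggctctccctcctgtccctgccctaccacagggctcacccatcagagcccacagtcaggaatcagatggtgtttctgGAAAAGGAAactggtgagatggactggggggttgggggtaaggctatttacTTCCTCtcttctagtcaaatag
Fcgr3, chr1:171059404-171059653, minus strand: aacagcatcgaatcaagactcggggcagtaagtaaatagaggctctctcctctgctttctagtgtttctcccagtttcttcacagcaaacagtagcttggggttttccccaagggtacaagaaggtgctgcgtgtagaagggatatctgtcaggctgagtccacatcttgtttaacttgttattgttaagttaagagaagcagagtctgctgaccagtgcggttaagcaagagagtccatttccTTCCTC
Fcgr1, chr3:96293970-96294219, minus strand: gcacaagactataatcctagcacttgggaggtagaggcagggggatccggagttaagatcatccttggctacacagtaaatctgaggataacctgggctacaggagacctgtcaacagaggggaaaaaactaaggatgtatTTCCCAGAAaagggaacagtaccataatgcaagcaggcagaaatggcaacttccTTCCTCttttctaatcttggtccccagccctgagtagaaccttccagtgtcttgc
Fcgr2b, chr1:170976072-170976321, minus strand: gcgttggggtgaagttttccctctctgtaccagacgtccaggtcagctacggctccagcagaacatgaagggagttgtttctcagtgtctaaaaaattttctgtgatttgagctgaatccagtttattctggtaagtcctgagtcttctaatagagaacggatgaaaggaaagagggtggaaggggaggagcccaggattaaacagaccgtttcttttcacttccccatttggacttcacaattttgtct

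The PU.1 core was present in the windows of Fcgr4, Fcgr3 and Fcgr1, beginning 22, 6 and 55 bases before the start, each time as TTCCTC. Of all 32851 windows of this length in the table, 23.3% hold it on either strand. The STAT element was found 109 bases before the Fcgr1 start (7.02% of all windows hold one), and the interferon element 73 bases before the Fcgr4 start (7.13% of all windows). In the Fcgr1 and Fcgr4 windows these elements do not overlap the PU.1 core. The windows of Fcgr2b, Fcer1g and Fcgrt held none of the 3 motifs; this says only that these letters are absent from those 250 bases.

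Fcgr4, Fcgr3 and Fcer1g rose in the arrays labelled knockout, by 2.59-fold, 1.81-fold and 1.79-fold. Fcgr1, Fcgr2b and Fcgrt did not pass the test, with log2 differences of 0.44, -0.23 and 0.18. So 3 of the 6 genes were called higher (limma, adjusted p below 0.05 over all genes), where 1.56% of all genes were, and none was called lower, where 1.59% of all genes were. At an unadjusted limma p below 0.05 all 6 genes passed, and 1 of them, Fcgr2b, was lower. That cut is loose: Fcgr1, the weakest of the 6, had rank 3394 by p among all genes. The groups of 4 arrays did not overlap in 5 of the 6 genes, against 12.9% of all genes. These genes were chosen with earlier results of the same data known, so the counts describe them and are no independent test. In RNA of whole tissue, a change in the number of cells that carry a receptor and a change in RNA per cell cannot be told apart.

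**Figure D1:**
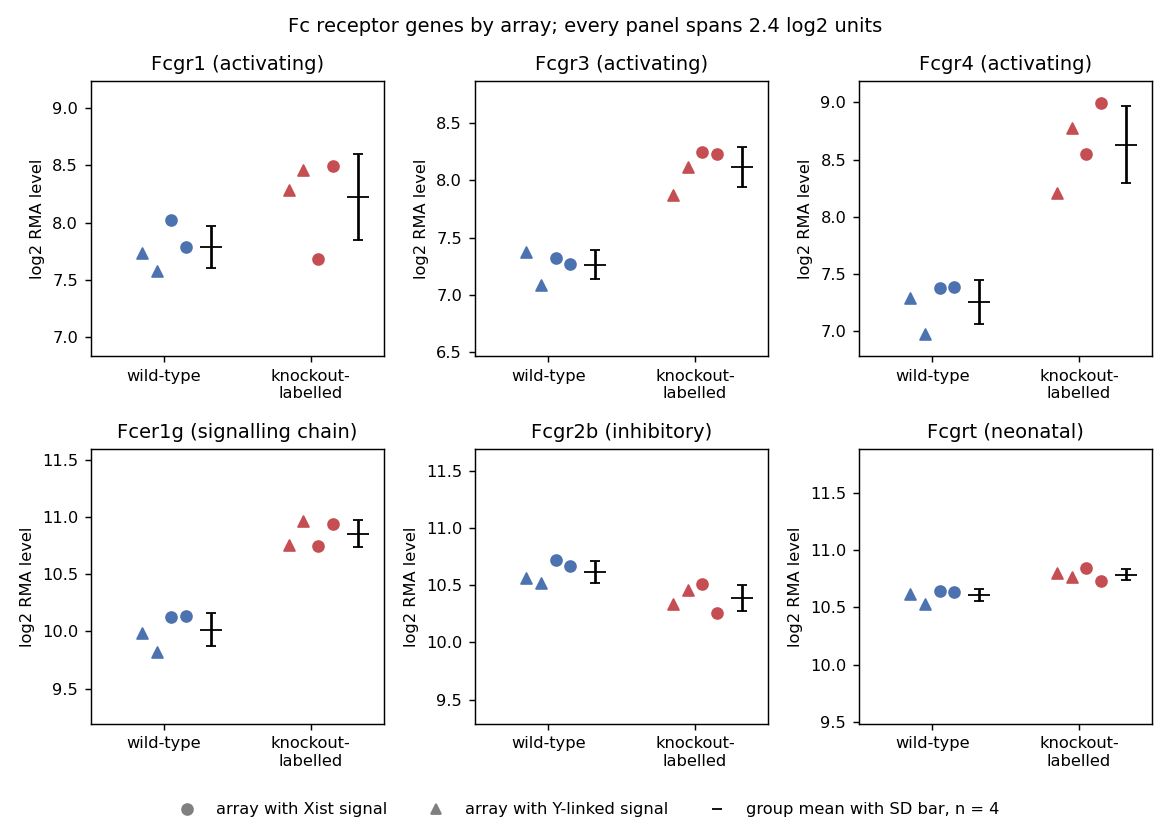
Log2 RMA level of each Fc receptor gene by array, with wild-type arrays in blue, knockout-labelled arrays in red, circles for arrays with Xist signal, triangles for arrays with Y-linked signal, and a black bar for the group mean and SD (n = 4). Fcgr4, Fcgr3 and Fcer1g separate the groups by 0.82, 0.49 and 0.61 log2 units, Fcgr2b and Fcgrt by 0.01 and 0.09, and in Fcgr1 knockout-labelled array 3 lies among the wild-type arrays.

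Fcgr4 is an activating receptor on neutrophils, monocytes and macrophages. It read 7.29, 6.98, 7.38 and 7.39 in wild-type arrays 1 to 4 and 8.20, 8.77, 8.55 and 8.99 in knockout-labelled arrays 1 to 4. Every knockout-labelled array lay above every wild-type array, with array 4 highest and array 1 lowest in the knockout-labelled group. The mean went from 7.26 ± 0.19 to 8.63 ± 0.34 (SD, n = 4 each), which is a difference of 1.37 (SE 0.16; 95% interval 1.01 to 1.73; limma adjusted p = 0.00605). Taken alone, the Xist arrays gave 1.39 and the Y-linked arrays 1.35, called in both (adjusted p = 0.0188 and 0.0426).

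Fcgr3 is carried by macrophages, neutrophils and natural killer cells. Its levels were 7.37, 7.08, 7.32 and 7.27 in wild-type arrays 1 to 4 and 7.87, 8.12, 8.25 and 8.23 in knockout-labelled arrays 1 to 4. The groups did not overlap, and array 1 was the knockout-labelled one nearest to wild-type, as it was for Fcgr4. The difference was 0.85 (SE 0.10; 95% interval 0.63 to 1.08; limma adjusted p = 0.00605), from 7.26 ± 0.13 to 8.11 ± 0.17 (SD, n = 4 each). With only the arrays that have Y-linked signal it was 0.76 and missed the threshold (adjusted p = 0.0882), while with the Xist arrays it was 0.94 (adjusted p = 0.0192).

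Fcer1g, the gamma chain that the activating receptors share with other receptors, read 9.99, 9.82, 10.12 and 10.13 in wild-type arrays 1 to 4. In knockout-labelled arrays 1 to 4 it read 10.75, 10.96, 10.74 and 10.94. The knockout-labelled arrays were all higher and lay between 10.74 and 10.96. From a wild-type mean of 10.01 ± 0.15 to a knockout-labelled mean of 10.85 ± 0.12 (SD, n = 4 each), the difference was 0.84 (SE 0.09; 95% interval 0.63 to 1.04; limma adjusted p = 0.00587). The Y-linked arrays alone gave 0.96 (adjusted p = 0.0348), and the Xist arrays alone 0.72, where it missed the threshold (adjusted p = 0.0584).

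Fcgr1, the high-affinity receptor of monocytes and macrophages, was the activating receptor that did not pass. It read 7.74, 7.58, 8.02 and 7.79 in wild-type arrays 1 to 4 and 8.28, 8.46, 7.68 and 8.49 in knockout-labelled arrays 1 to 4. Knockout-labelled array 3 was below 3 of the wild-type arrays, and the other arrays of its group were above all 4. The difference was 0.44 (SE 0.17; 95% interval 0.06 to 0.83; limma adjusted p = 0.177). Without knockout-labelled array 3 it was 0.63 and passed (adjusted p = 0.0235). The Xist arrays, which include array 3, gave 0.18 and the Y-linked arrays 0.71 (adjusted p = 0.754 and 0.0629); the gap between the sets, 0.53, did not pass limma's interaction test (adjusted p = 0.916).

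Fcgr2b, the inhibitory receptor, had the only negative difference of the 6. Its levels were 10.56, 10.52, 10.72 and 10.67 in wild-type arrays 1 to 4 and 10.33, 10.45, 10.51 and 10.26 in knockout-labelled arrays 1 to 4. The knockout-labelled arrays were all below the wild-type arrays, by 0.01 at the nearest pair. The difference was -0.23 (SE 0.08; 95% interval -0.41 to -0.05) and did not pass (limma adjusted p = 0.148). Over the alternatives it lay between -0.31 and -0.14, none of them called.

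Fcgrt, the neonatal receptor, read 10.62, 10.53, 10.64 and 10.64 in wild-type arrays 1 to 4 and 10.80, 10.77, 10.84 and 10.73 in knockout-labelled arrays 1 to 4. All knockout-labelled arrays were higher, and the spread within each group was the smallest of the 6 genes (SD 0.05 in both). The difference was 0.18 (SE 0.06; 95% interval 0.04 to 0.32) and did not pass (limma adjusted p = 0.148). Array 2 was the lowest of the wild-type group for all 6 genes, Fcgrt included.

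The activating chains were then set against the inhibitory and the neonatal receptor within each array, which asks whether they changed by different amounts; the levels of different probe sets were not compared. Fcgr4, Fcgr3 and Fcer1g rose against Fcgr2b by 1.60 (SE 0.20), 1.08 (SE 0.11) and 1.07 (SE 0.10) log2 units, which is 3.03-fold, 2.12-fold and 2.09-fold. For each of these 3 the 4 knockout-labelled arrays lay above the 4 wild-type arrays, and the exact two-sided permutation p was 0.0286, the smallest that 70 arrangements allow (0.0381 adjusted over the 8 contrasts of this kind). This outcome was fixed by the values above: each of the 3 chains alone was higher without overlap, and Fcgr2b alone was lower without overlap. The p against Fcgr2b therefore adds no test, and the size of the shift is the description. Against Fcgrt the same chains rose by 1.19 (SE 0.20), 0.67 (SE 0.10) and 0.66 (SE 0.09), again without overlap and with the same exact p.

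Fcgr1 did not differ beyond the spread in these contrasts. Against Fcgr2b its shift was 0.67 (SE 0.24; exact two-sided permutation p = 0.0857, adjusted 0.0980). Against Fcgrt it was 0.26 (SE 0.22; exact two-sided permutation p = 0.257, adjusted 0.257), and it moved to 0.47 without knockout-labelled array 3 and to 0.16 without array 4 of that group. The Xist arrays alone gave 0.03 and the Y-linked arrays alone 0.50. Relative to the wild-type mean, Fcgr1 minus Fcgr2b was 0.78, 0.84, 0.01 and 1.07 in knockout-labelled arrays 1 to 4, so array 3 lay at the wild-type level and the other arrays did not. A p above the threshold does not show that Fcgr1 changed as Fcgr2b or Fcgrt did.

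**Figure D2:**
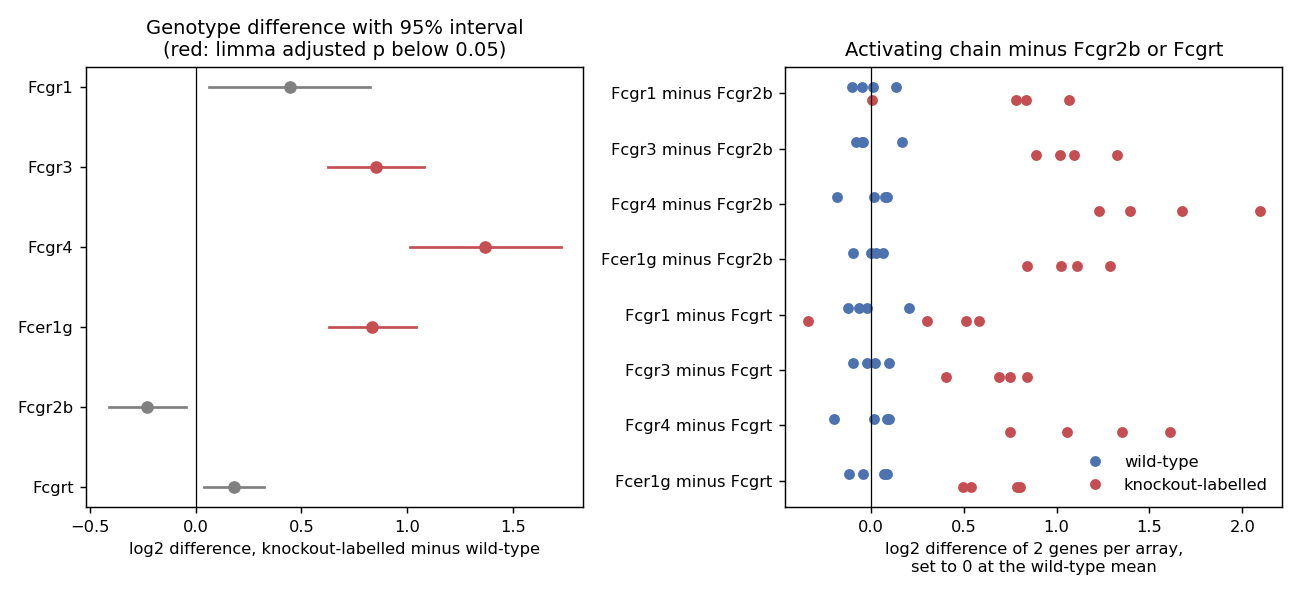
Left, log2 difference of each Fc receptor gene with its 95% interval, in red where limma's adjusted p was below 0.05; right, the log2 value of an activating chain minus that of Fcgr2b or Fcgrt in each array, set to 0 at the wild-type mean. Differences run from -0.23 for Fcgr2b to 1.37 for Fcgr4, and the arrays of the groups are apart in the 6 contrasts of Fcgr3, Fcgr4 and Fcer1g but not in the 2 of Fcgr1.

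Fcgr2b, Fcgr4, Fcgr3 and Fcer1g lie near each other on chromosome 1, with Fcgr1 on chromosome 3 and Fcgrt on chromosome 7. Il10 is on chromosome 1 as well, between 39.9 and 40.2 Mb from those 4 genes in GRCm38.p6. In gene order, Fcgr2b, Fcgr4 and Fcgr3 are consecutive among the measured genes, and 6 other measured genes stand between Fcgr3 and Fcer1g. None of the 16 other genes in this stretch and the 5 measured genes to each side was called, with differences from -0.36 for Ufc1 to 0.34 for Adamts4 (median -0.14). As 3.15% of all genes were called, the lack of calls among 16 says little about the stretch. Nr1i3, the nuclear receptor CAR, and Apoa2, an apolipoprotein, both between Fcgr3 and Fcer1g, had -0.27 and -0.13; these 4 neighbours are named after their values were seen.

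**Figure D3:**
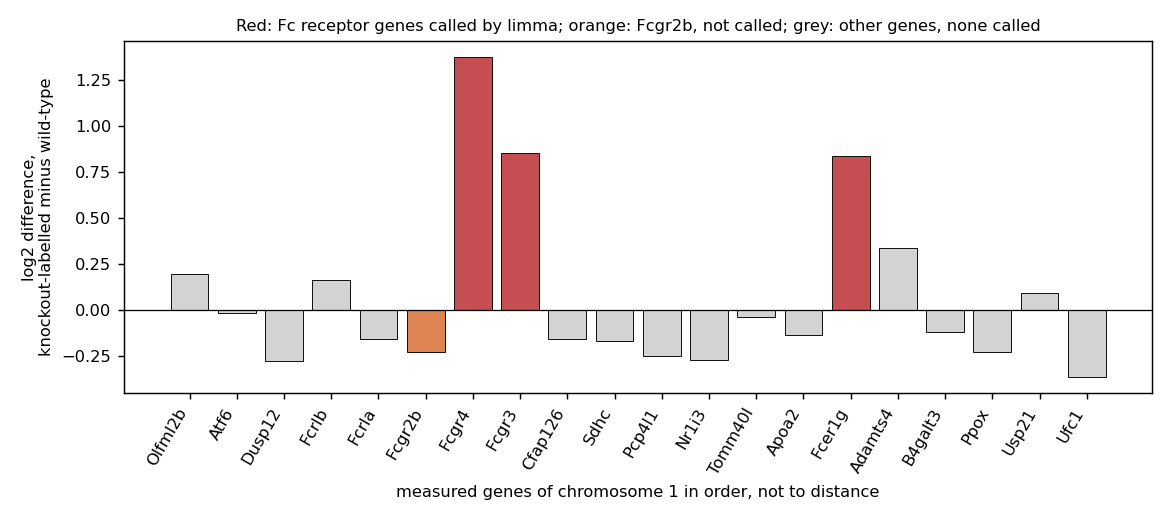
Log2 difference, knockout-labelled minus wild-type, of the measured genes from 5 before Fcgr2b to 5 after Fcer1g, in their order on chromosome 1 and not to distance. Fcgr4 (1.37), Fcgr3 (0.85) and Fcer1g (0.84) stand above neighbours that lie between -0.36 and 0.34, and Fcgr2b (-0.23) lies within their range.

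Genes that carry the activating signal onward were higher for part of the list. Of 17 measured genes of ITAM signalling, 5 rose, none fell and 12 did not pass. Of them 29.4% were called against 3.15% of all genes, and the list median was 0.28 against 0.03 over all genes. Each list count below is to be read against the same 3.15%. Counts of positive differences are to be read against 56.0% of all genes, or 43.7% after all arrays were set to 1 median. Pik3cd, a leukocyte phosphoinositide 3-kinase subunit, rose by 0.69 (adjusted p = 0.00682) and Tyrobp, the adaptor DAP12 that carries an ITAM like that of Fcer1g, by 0.62 (adjusted p = 0.0126). The Src-family kinase Fgr rose by 0.71 (adjusted p = 0.0184) and the phosphoinositide 3-kinase regulator Pik3r5 by 0.67 (adjusted p = 0.0244). Without wild-type array 1 or wild-type array 2 the count was 2; Fgr lost its call without either (adjusted p up to 0.0611) and Pik3r5 without wild-type arrays 1, 2 or 3 or knockout-labelled array 4 (up to 0.0792).

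Of 10 measured genes of phagocytosis and the NADPH oxidase, 5 rose (50% called) and 5 did not pass, with all 10 differences positive and a median of 0.40. Rac2, the leukocyte small GTPase that activates the oxidase, rose by 0.60 (adjusted p = 0.0130). Cybb, the catalytic oxidase subunit, rose by 0.77 (adjusted p = 0.0143), its partner Cyba by 0.56 (adjusted p = 0.0181) and Nckap1l, which drives actin assembly, by 0.60 (adjusted p = 0.0282). The count was 1 without wild-type array 1, when Cybb, Cyba and Nckap1l lost their calls (adjusted p up to 0.0519, 0.0581 and 0.0892 when any 1 array was left out). In the arrays with Xist signal alone none of the 10 was called, and in those with Y-linked signal 2 were, with medians of 0.36 and 0.51.

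The inhibitory side was not lower as a list. Of 12 measured inhibitory phosphatases, adaptors and ITIM receptors, 4 rose, none fell and 8 did not pass, and all 12 differences were positive (median 0.32). Pirb, an ITIM receptor of myeloid and B cells, rose by 1.13 (adjusted p = 0.00614), and Lilrb4a, another ITIM receptor, by 0.61 (adjusted p = 0.0207). Dok3, an adaptor that dampens ITAM signals, rose by 0.42 (adjusted p = 0.0198) and Inpp5d, which encodes SHIP-1, the phosphatase that Fcgr2b recruits, by 0.40 (adjusted p = 0.0316). The count was 1 without wild-type array 1 or knockout-labelled array 4. Both omissions removed the call of Lilrb4a (adjusted p up to 0.0663), and Dok3 also lost it without wild-type arrays 2 or 3 (up to 0.0651). Inpp5d kept its call only without wild-type array 3 or knockout-labelled array 1 (otherwise up to 0.0951).

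Other receptors that pair with the gamma chain, or with a like adaptor, gave few calls. Of 9 measured, Cd300ld, a myeloid receptor, rose by 0.35 (adjusted p = 0.0484) and 8 did not pass (median 0.11). That call was lost in 7 of the 8 fits without 1 array, all but the one without knockout-labelled array 3 (adjusted p up to 0.133), and with the block for signal set (adjusted p = 0.0503). Clec4e, the receptor Mincle for microbial and damage-related lipids, and Clec4n, the receptor Dectin-2, had 0.46 each (adjusted p = 0.0714 and 0.0766). Clec4e read 5.25 and 5.71 in the wild-type and knockout-labelled groups, below the array medians over all rows, 6.09 to 6.22. Only 3 of the 9 genes remained with the lowest 40% of genes left out, so the few calls say little. With the signal-set block, under which 4.68% of all genes were called, Clec4e passed (adjusted p = 0.0230), and Fcgr4, Fcgr3 and Fcer1g stayed called (adjusted p = 0.00224, 0.00276 and 0.00276).

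For the neonatal receptor, none of 8 measured partner and trafficking genes was called by limma. At the loose cut of an unadjusted limma p below 0.05, 2 of the 8 passed. All 8 differences were negative, with a median of -0.12. Alb, whose protein FcRn recycles, had -0.12 (adjusted p = 0.280), and B2m, the light chain of FcRn, had -0.04 (adjusted p = 0.732); B2m is named for its role, after its value was seen. Both read at 13.4 or more in either group, near the top of the value range. Myo5b, a motor of recycling endosomes, had -0.34 (adjusted p = 0.0851), and the sorting genes Vps35 and Snx4 had -0.17 and -0.20.

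Among 12 receptors for other antibody classes and their relatives, Fcrl1, a B cell receptor of the same family, rose by 0.37 (adjusted p = 0.0415) and 11 did not pass. Its level was 6.09 and 6.46 in the wild-type and knockout-labelled groups. That is near the array medians over all rows (6.09 to 6.22) and below those over the measured genes (6.55 to 6.67). The call of Fcrl1 held in 1 of the 8 fits that leave out an array, that without knockout-labelled array 1 (elsewhere adjusted p up to 0.120). Fcamr, a receptor for IgA and IgM, had 0.70 (adjusted p = 0.0550), and passed with the signal-set block (adjusted p = 0.0301). Pigr, which carries IgA into bile, had -0.21 (adjusted p = 0.205), and Fcmr, the IgM receptor, -0.30 (adjusted p = 0.208).

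Of 16 measured genes of signals and factors known to shift the balance of Fc receptors, 2 rose and 14 did not pass (median 0.15). Spi1, which encodes PU.1, rose by 0.66 (SE 0.09; adjusted p = 0.00704), and the receptor chain Il4ra by 0.39 (adjusted p = 0.0279). Omitting any wild-type array, or knockout-labelled array 4, removed the call of Il4ra (adjusted p up to 0.0859) and left a count of 1, and Spi1 kept it in all 8 fits that leave out an array (adjusted p up to 0.0270). Irf8, a factor of monocytes and macrophages, had 0.25 (adjusted p = 0.220), and Stat3 had 0.24 (adjusted p = 0.103).

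**Figure D4:**
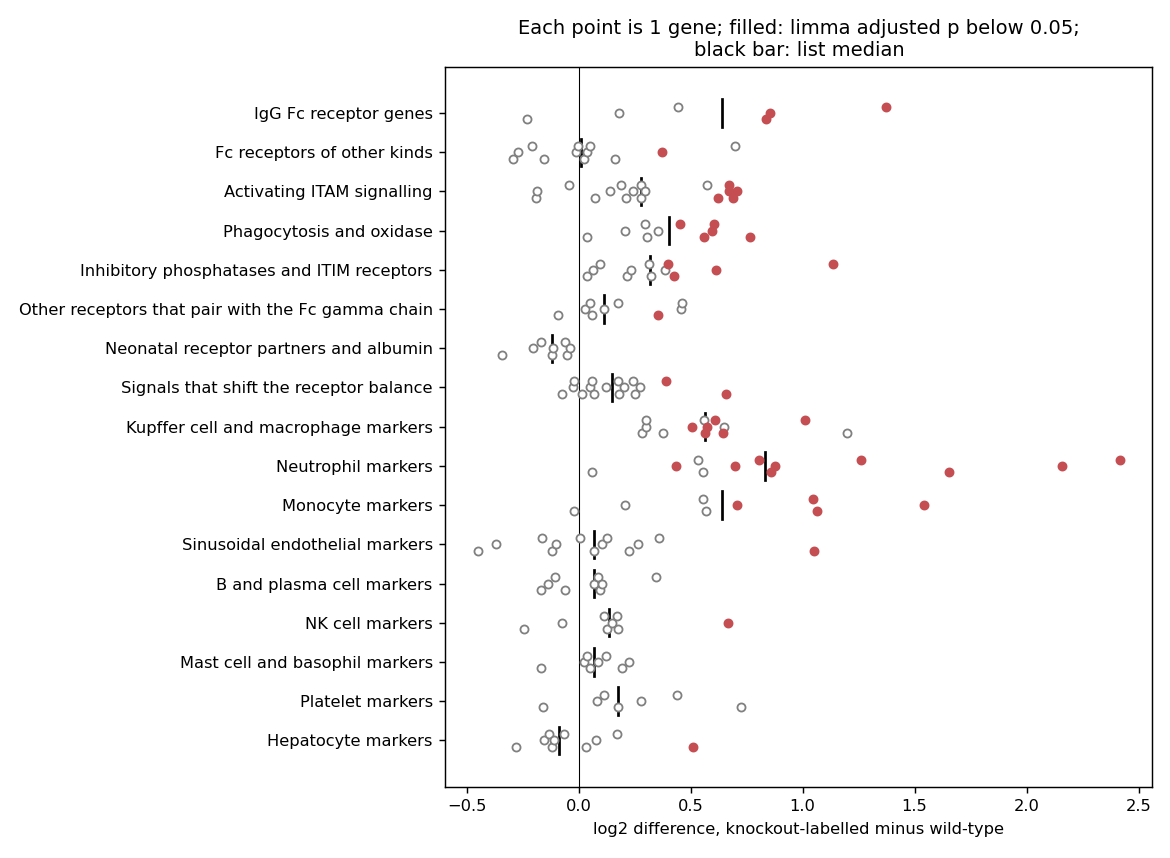
Log2 difference, knockout-labelled minus wild-type, of the 6 IgG Fc receptor genes and of each gene in 16 lists of partner genes and cell type markers; filled points had a limma adjusted p below 0.05 and black bars are list medians. Medians are highest for neutrophil (0.83), IgG Fc receptor (0.64), monocyte (0.64) and macrophage (0.56) genes, and lie at 0.07 for sinusoidal endothelial and -0.09 for hepatocyte markers.

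Markers of the cells that carry these receptors moved in the same arrays. Of 12 neutrophil markers, 9 rose (median 0.83); their summed level on the linear scale was 963 to 1248 in wild-type and 1904 to 3216 in knockout-labelled arrays. Mmp8, S100a8 and Ngp, all neutrophil granule or cytosol proteins, rose by 2.16, 1.65 and 2.42 (adjusted p = 0.00815, 0.0108 and 0.00851). Of 13 Kupffer cell and macrophage markers, 6 rose (median 0.56), with sums of 10376 to 12682 and 15283 to 18751, and of 8 monocyte markers 4 rose (median 0.64), with sums of 588 to 723 and 970 to 1423. Without single arrays these counts fell to 5 for neutrophils (wild-type arrays 1 or 3 or knockout-labelled array 4), 2 for macrophages (wild-type arrays 1 or 2 or knockout-labelled array 4) and 1 for monocytes (wild-type arrays 1 or 2). The macrophage count was 9 without knockout-labelled array 3.

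The counts of these lists also moved with other settings. Of the 13 macrophage markers, 3 were called after all arrays were set to 1 median, 2 with every row of the table tested, 11 with array weights and 1 within either signal set. Of the neutrophil markers 4 were called in the Y-linked arrays alone, and of the monocyte markers 2 there, none in the Xist arrays (median 0.70) and 2 with every row tested. The ITAM count was 3 with every row tested and 1 in the Xist arrays; the oxidase count was 3 with every row tested and 3 at a common median; and the inhibitory count was 1 within either signal set. At a common median and with every row tested, the single calls of Fcrl1 and Cd300ld were lost, and the list that holds Spi1 and Il4ra had 1 call. Leaving out further single arrays gave 3 ITAM calls (wild-type array 3 or knockout-labelled array 4), 2 inhibitory calls (wild-type array 2), 2 oxidase calls (wild-type array 2 or knockout-labelled array 4), 3 oxidase calls and 3 macrophage calls (knockout-labelled array 2) and 2 monocyte calls (array 4 of either group).

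The difference of Fcgr4 (1.37) was above those of all 13 macrophage markers, which ran from 0.28 to 1.20, and within the range of the neutrophil markers (0.06 to 2.42) and the monocyte markers (-0.02 to 1.54). It was above most of both lists: only Ly6c2 (1.54) of the monocyte markers exceeded Fcgr4. Of the neutrophil markers only Ngp (2.42), Mmp8 (2.16) and S100a8 (1.65) did. Fcgr3 and Fcer1g lay within all 3 ranges. The complement gene C1qb (0.64; adjusted p = 0.00587) and the scavenger receptor Cd163 (1.01; adjusted p = 0.0148) rose among macrophage markers, and Chil3 (1.05; adjusted p = 0.0143) and Plac8 (1.06; adjusted p = 0.0189) among monocyte markers. Omitting wild-type array 3 removed the call of Chil3 (adjusted p = 0.0502), and omitting wild-type arrays 1 or 2 that of Plac8 (up to 0.0615). Csf1r (0.56) and C1qc (0.51), also called macrophage markers, lost their calls in 3 and 5 of the 8 fits that leave out an array. Itgam (0.71) and Ly6c2 (1.54), called monocyte markers, lost theirs in 5 and 6. The part of these cells in the receptor differences was not tested.

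Which cells gave the Fcgr2b RNA here was not tested. The gene was set beside markers of sinusoidal endothelium, on which the receptor is abundant in liver. Of 13, Lyve1, a hyaluronan receptor, rose by 1.05 (adjusted p = 0.00660) and 12 did not pass; the median was 0.07, and the summed level was 10731 to 13294 in wild-type and 13241 to 14559 in knockout-labelled arrays, which overlap. Stab1, a scavenger receptor, had 0.27 (adjusted p = 0.168), Mrc1, the mannose receptor, 0.36 (adjusted p = 0.0888) and Emcn, a sialomucin, -0.45 (adjusted p = 0.0792). Fcgr2b, at -0.23, lay within the range of these markers (-0.45 to 1.05) and below that of the macrophage markers (0.28 to 1.20). Within the endothelial list it was near the low end, with only Emcn and Kdr (-0.37, named after its value was seen) lower. Fcgr2b also lay below the range of the B and plasma cell markers (-0.17 to 0.35). For Fcgrt, of 10 hepatocyte markers Tat rose by 0.51 (adjusted p = 0.0247) and 9 did not pass (median -0.09), and their sums overlapped (84479 to 86228 and 83683 to 87866). Tat lost its call without wild-type arrays 2, 3 or 4 or knockout-labelled array 4 (adjusted p up to 0.0758).

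The genes whose pattern over the 8 arrays was closest to each receptor were found by Pearson correlation among 4872 genes with an SD of at least 0.2. The values are a description: they were picked as the highest of many, and the arrays form 2 genotype groups. Closest to Fcgr4 were Ms4a8a (r = 0.992), the B cell attractant Cxcl13 (0.991) and Csf2rb2 (0.989), a receptor chain for interleukin-3, which rose by 2.09, 1.85 and 1.07. Closest to Fcgr3 were Tmem268 (0.995), Pla2g7 (0.992), which inactivates platelet-activating factor, and Mlxip (0.991). Closest to Fcer1g were Dmpk (0.991), the leukocyte integrin chain Itgb2 (0.987) and Slc11a1 (0.987), a metal transporter of phagosomes.

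For the 3 receptors that did not pass, the closest genes differed in their own calls. Those closest to Fcgr1, namely Treml4 (r = 0.994), Samhd1 (0.987) and Klra2 (0.985), also did not pass (adjusted p = 0.196, 0.230 and 0.130). Those closest to Fcgr2b, namely Slc16a7 (0.980), Sqor (0.979) and Cenpm (0.975), had differences of -0.41, -0.38 and -0.41 that did not pass (adjusted p = 0.124, 0.0686 and 0.100). Those closest to Fcgrt, namely Rhbdf2 (0.984), Brpf1 (0.979) and Il22ra1 (0.975), a chain of the interleukin-22 receptor, rose by 0.92, 0.39 and 1.26 (adjusted p = 0.0217, 0.0355 and 0.00730). Rhbdf2 lost its call without wild-type array 1 or knockout-labelled array 4 (adjusted p up to 0.0553), and Brpf1 held it only in the fit without knockout-labelled array 1 (elsewhere up to 0.0971).

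Within groups the receptors did not all move together. With group means removed, the correlation over the 8 arrays was 0.83 between Fcgr4 and Fcer1g, 0.79 between Fcgr4 and Fcgr3 and 0.76 between Fcgr2b and Fcgrt. It was 0.72 between Fcgr1 and Fcer1g, and -0.05 between Fcgr1 and Fcgr3. These are descriptions over 4 arrays per group and carry no test.

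Across settings, Fcgr4 was called in all 19 alternatives, with differences between 1.25 and 1.51. Fcgr3 and Fcer1g were called in 18 each, and the exceptions are the 4-array sets given above. In the 8 fits that leave out an array the highest adjusted p was 0.0240 for Fcgr4 and 0.0239 for Fcgr3 and Fcer1g. Over all genes, 347 were called higher and 352 lower; after all arrays were set to 1 median, 209 were higher and 330 lower, and the receptor calls were the same. The count over all genes was 207, 237, 238 and 410 without wild-type arrays 1, 2, 3 and 4 and 207 without knockout-labelled array 4.

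**Figure D5:**
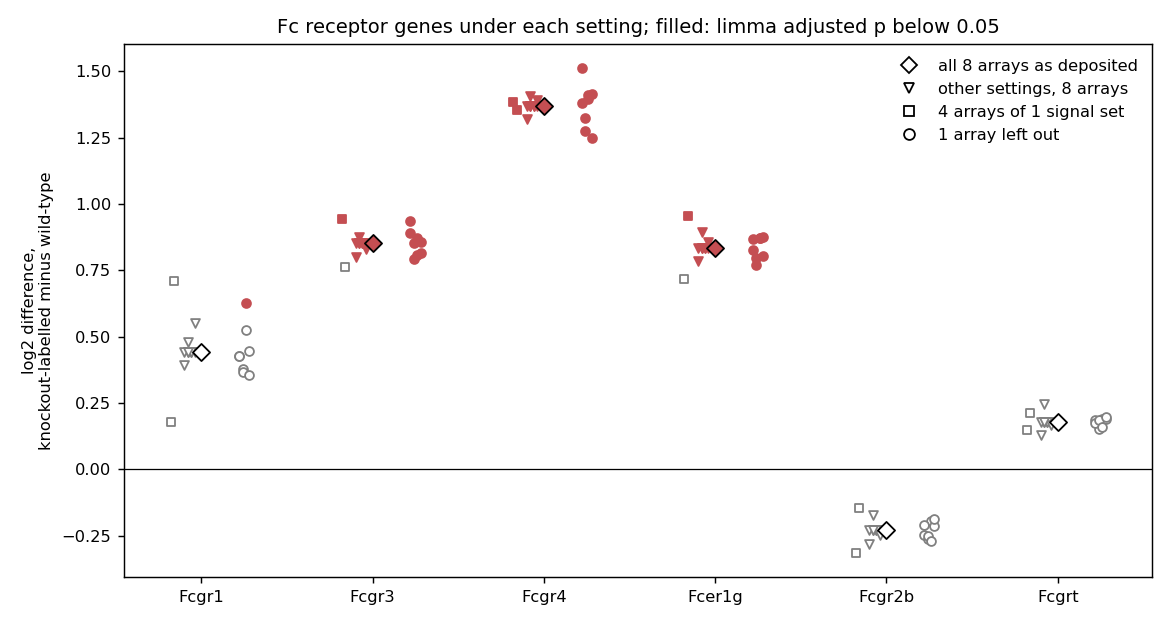
Log2 difference, knockout-labelled minus wild-type, of each Fc receptor gene with all 8 arrays (diamonds), other settings on 8 arrays (triangles), the 4 arrays of 1 signal set (squares) and 1 array left out (circles); filled markers had a limma adjusted p below 0.05. Fcgr4 stays between 1.25 and 1.51 and filled throughout, Fcgr1 is filled once, without knockout-labelled array 3, and Fcgr2b is below 0 in every setting shown.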

How the data were processed

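Liver RNA was measured on 8 arrays, each labelled as a sample of its own. The deposited values are log2 levels that the authors made by RMA; the submitters' processing notes name R 3.0.1. RMA puts arrays on a common scale. Its settings and the build are not stated in the labels or notes. The 41345 rows run from 2.49 to 13.8. Rows were named through the platform annotation: 23521 name 1 gene, 1814 several and 16010 are unnamed here; 23328 of the 23521 matched the RefSeq table by gene number. Of several rows of a gene, that with the highest mean was kept.

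All 22180 genes were fitted with limma 3.58.1 (lmFit, eBayes) in R 4.3.3, without filter, covariate or pairing, with Benjamini-Hochberg adjustment over all genes, and called below 0.05; every adjusted p of a gene is from this fit or its named alternative. Contrasts of 2 genes used exact permutation over arrays (scipy 1.17.1 in Python 3.11.15). Figures were drawn with matplotlib 3.10.9. The fit was tested on simulated data. Number of arrays limits precision, and no label says which animal each array came from, so p-values measure spread between these samples, which may be technical. No array repeats another: the closest pair differed by 0.22 log2 units (root mean square).

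The members and the 16 lists (179 memberships, 172 measured) were chosen with earlier results of these data known. Named genes are the 6 members, Il10, per list the 4 genes of smallest p, and the 3 genes closest in pattern to each member; predicted genes and small RNAs were skipped. Alternatives were a filter on the lowest 40% of genes, every row, averaged rows per gene, a common median, quantile normalization, trend and robust eBayes, array weights, a replicate block, a signal-set block, each signal set alone and each array left out.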

Additional observations from a re-analysis of the deposited data

Results flagged for a closer look

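Dixon's test at the 95% level was applied to 192 groups of 4 arrays, of the 88 named genes and the 8 contrasts, and marked 9, or 4.69%; chance marks about 1 in 20, so this number is near what chance gives.

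Of the contrasts, Fcgr3 minus Fcgr2b was marked, with wild-type array 1 at -3.19 on the log2 scale, above the other wild-type arrays. No single Fc receptor gene of the 6 was marked.

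Arrays that stood apart from their group in other genes were wild-type array 2 in Il22ra1 (8.36), Rhbdf2 (7.69) and Stab1 (9.12), wild-type array 3 in Cxcr2 (7.46) and wild-type array 4 in Cpa3 (3.87). Wild-type array 1 was marked in Fcmr (6.71), knockout-labelled array 3 in Samhd1 (9.08) and knockout-labelled array 1 in Tmem268 (8.36).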

How the results depend on the processing

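The receptor results kept their direction in every alternative run. Fcgr3 (0.76) missed the threshold with only the arrays that have Y-linked signal, Fcer1g (0.72) with only those that have Xist signal, and Fcgr1 (0.63) passed without knockout-labelled array 3. Fcgr3 minus Fcgr2b moved to 1.26 in the Xist arrays and 0.91 in the Y-linked arrays, by more than its own spread between replicates. Each of the other 7 contrasts stayed within its own: Fcgr1 minus Fcgrt ran from 0.03 to 0.50 and Fcgr1 minus Fcgr2b from 0.49 to 0.90. The cause was not tested.

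Leaving out 1 array, the differences ranged from 0.36 to 0.63 for Fcgr1, -0.27 to -0.19 for Fcgr2b, 0.79 to 0.94 for Fcgr3, 1.25 to 1.51 for Fcgr4, 0.77 to 0.88 for Fcer1g and 0.15 to 0.20 for Fcgrt. The number of genes called ranged from 207 to 1040, was 332 with every row tested, and was 317 and 171 with only the Xist arrays and only the arrays with Y-linked signal, which hold 4 arrays each.

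Replicate numbers occur in both groups. Deviations of same-numbered arrays correlated at 0.27, 0.04, -0.10 and 0.29, and no label ties a number to a litter, batch or day, so the arrays were not paired. With the replicate block 497 genes were called, and Fcgr4 (adjusted p = 0.00926), Fcer1g (0.0120) and Fcgr3 (0.0133) kept their calls. Of the lists, 3 macrophage, 2 oxidase and 2 inhibitory genes were then called, and no gene of the hepatocyte list.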

Other observations

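Markers of other cells that can carry Fc receptors gave few calls. With the lowest 40% of genes left out, 2 of 8 natural killer and 1 of 8 mast cell and basophil markers remained. So few calls there do not show that these cells stayed the same. Of 8 natural killer cell markers, Il2rb, a chain of the interleukin-2 receptor, rose by 0.67 (limma adjusted p = 0.0348) and 7 did not pass (median 0.14); its call was lost without wild-type arrays 1, 2 or 4 or knockout-labelled arrays 2 or 4 (adjusted p up to 0.104). Limma called none of 9 markers of B and plasma cells, 8 of mast cells and basophils and 7 of platelets, with medians of 0.07, 0.07 and 0.17. At the loose cut of an unadjusted limma p below 0.05, 1, 0 and 2 of them passed. Itga2b, a platelet integrin chain, had 0.28 (adjusted p = 0.0636), and Xbp1, a factor of plasma cells that hepatocytes also express, had 0.35 (adjusted p = 0.0791). With the signal-set block Xbp1 (adjusted p = 0.0394) and the platelet integrin Itgb3 (0.72; adjusted p = 0.0389) passed.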
